A study of Homo sapiens with 6 samples.

Results

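The genes described here are 9 classical targets of p53, namely MDM2, CDKN1A, GADD45A, BTG2, SESN1, TP53INP1, ZMAT3, RRM2B and XPC. They were taken by name as known target genes, by a rule that uses no measured value, but with earlier results of these data known. They are 9 of the 25420 genes in the deposited SLAM-seq tables. All 9 were found, and the reads of each gene were summed over its annotated 3′ UTR entries. Both groups were cultures of MOLM-13, a human acute myeloid leukaemia cell line. The C646-treated group received 10 µM C646, an inhibitor of the acetyltransferase activity of CBP and p300, for 2 h, and the control group received DMSO, the solvent, for the same time. Both groups were labelled with 100 µM 4-thiouridine (4sU) in the last 1 h, and each group had 3 replicates. It is not stated whether the replicates were separate cultures, so that p-values measure only the spread between these libraries. The data come from 1 cell line, 1 dose and 1 time.

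p53 is a transcription factor that is kept at a low level by the ubiquitin ligase MDM2 and accumulates when DNA is damaged or the cell is stressed. It binds DNA as a tetramer at sites made of a pair of half-sites and activates genes for cell cycle arrest, DNA repair, metabolism and cell death, among them MDM2 itself, which closes a negative feedback loop. p300 and CBP bind the activation domain of p53, acetylate it and acetylate histones at its target genes.

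In SLAM-seq, 4sU built into RNA during the labelling hour leads to a C where the gene has a T. Reads with at least 1 T > C conversion (T > C reads) therefore stand for newly synthesized mRNA and all reads for total mRNA, while reads without a conversion hold older mRNA and new molecules whose conversions were missed. No unlabelled library was analysed, so the background of T > C reads from sequencing errors is not known, and the reads are PCR copies that do not count molecules. The libraries held 7252597 to 10225448 reads on 3′ UTRs, of which 477824 to 833410 were T > C reads. T > C reads made up 8.74% to 8.86% of the reads in the 3 DMSO libraries and 6.34% to 6.71% in the 3 C646 libraries. All 10 myeloid marker genes checked were present, with FLT3 at 101 to 206 CPM and LYZ at 2646 to 3096 CPM. Among markers of T, B, erythroid, epithelial and fibroblast cells, CD3E, HBB, KRT19 and COL1A2 had 0 reads in all libraries and none exceeded 6.65 CPM. Their summed level was 3.55 to 6.49 CPM in DMSO and 10.3 to 11.7 CPM in C646. The collagen gene COL1A1 was at 0.819 to 2.34 and at 5.71 to 6.65 CPM, and the part of these markers in the results was not tested.

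Sites of the p53 type around the starts of these genes are described first, since p53 binds DNA at sites of this kind. The search covered 2500 bases on each side of the start of the canonical transcript (GENCODE, GRCh38), for 20-base matches to the p53 consensus with no spacer, the 8 core letters intact and at most 2 mismatches. The consensus is its own reverse complement, so that both strands were covered. Such a match was present at 5 of the 9 members and at 2.31% of 10676 gene starts. With at most 1 mismatch it was present at 3 members and at 0.403% of the starts. The search was added after seeing the data, and a match describes the sequence, since binding was not measured. The matches of 4 members are given 5′ to 3′ with the core of each half-site in capitals, and the match of RRM2B, in its first intron, is not printed.

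CDKN1A, upstream of the start by 2265 bases, chr6:36676449-36676468, plus strand: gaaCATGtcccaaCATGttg
BTG2, upstream of the start by 1877 bases, chr1:203303642-203303661, plus strand: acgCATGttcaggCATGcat
GADD45A, intron 3, 1574 bases into the gene, chr1:67686775-67686794, plus strand: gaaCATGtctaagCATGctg
ZMAT3, intron 1, 1602 bases into the gene, chr3:179070188-179070207, minus strand: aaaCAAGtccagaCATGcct

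The ZMAT3 site had 0 mismatches, the GADD45A and RRM2B sites 1, and the CDKN1A and BTG2 sites 2. MDM2, SESN1, TP53INP1 and XPC had no match of this kind in the window.

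The first question was whether the new mRNA of p53 targets differed between C646-treated and control cells. CDKN1A, BTG2 and ZMAT3 were called lower in C646, TP53INP1 was too rarely read for the main test, and MDM2, GADD45A, SESN1, RRM2B and XPC were not called. A call needed an adjusted p no higher than 0.01 together with a log2 fold change of 1 or more in either direction (edgeR's quasi-likelihood test, Benjamini-Hochberg adjustment over 7722 genes). Thus 3 of 8 tested members, or 37.5%, were called lower and 0 were called higher (also 0 with DESeq2, and 1, GADD45A, at an unadjusted p under 0.05), where 33.0% of all tested genes were called lower and 2.97% higher. The share of members called lower is near that of all genes. New mRNA was lower across the transcriptome, with a median log2 fold change of -0.83 over all tested genes and -0.66 over the 8 members, and 4 of the 8 members lay above the median of all genes. In a bulk sample, fewer cells with a transcript and less transcript per cell cannot be told apart.

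Values are T > C reads as CPM of all reads on 3′ UTRs of the same library (TMM-scaled), for replicates 1, 2 and 3. The scaling to all reads keeps a shift that most genes share. Scaling to the T > C reads themselves removes it and moves the median gene up by 0.83 on the log2 scale.

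MDM2 is the ubiquitin ligase that marks p53 for degradation and is the main feedback target. Its reads lie in the 3′ UTR in exon 11, the last exon (chr12:68839850-68845544). T > C reads of MDM2 were at 44.8, 41.5 and 40.9 CPM in DMSO and at 26.7, 33.2 and 41.9 CPM in C646. C646 replicate 3 was within the DMSO range and the groups overlapped, while C646 replicates 1 and 2 were below it. The log2 fold change was -0.32 (SE 0.18, 95% interval -0.68 to 0.04) with an adjusted p of 0.123, and it was 0.51 when scaled to T > C reads.

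CDKN1A, GADD45A and BTG2 slow or stop the cell cycle. CDKN1A encodes the inhibitor p21 of cyclin-dependent kinases, and its reads lie in the last exon, exon 3 (chr6:36685801-36687339). In new mRNA, CDKN1A was at 89.8, 92.1 and 82.7 CPM in DMSO and at 45.1, 47.4 and 39.7 CPM in C646. The groups were far apart, with every C646 library below every DMSO library. The log2 fold change was -1.002 (SE 0.15) with an adjusted p of 3.09e-06. The size was at the fold limit of the call, and the gene was no longer called without DMSO replicate 1 (-0.99), DMSO replicate 2 (-0.97) or C646 replicate 3 (-0.93), each with an adjusted p of 1.76e-05 to 4.82e-05. The call was also lost at -0.998 in the fit of single 3′ UTR entries and at -0.80 (adjusted p 0.000147) when scaled to all filtered reads.

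BTG2 encodes an antiproliferative protein that recruits the CCR4-NOT deadenylase, and its reads lie in exon 2, the last exon (chr1:203307439-203309601). BTG2 had T > C reads at 10.1, 8.87 and 11 CPM in DMSO and at 3.84, 4.78 and 3.87 CPM in C646. The 3 C646 libraries were close together and all below the DMSO libraries. BTG2 had a log2 fold change of -1.27 (SE 0.28, adjusted p 0.000349) and kept its call when any 1 library was left out, with values from -1.37 to -1.19.

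GADD45A, a stress sensor that binds PCNA and p21 and acts in arrest and repair, has its 3′ UTR reads in the last exon, exon 4 (chr1:67687698-67688338). It was the member that ran most against the general decrease. T > C reads of GADD45A were at 6.11, 6.38 and 9.16 CPM in DMSO and at 11, 9.93 and 12.3 CPM in C646. All 3 C646 libraries were above all DMSO libraries, with DMSO replicate 3 closest to them. The log2 fold change was 0.62 (SE 0.25, 95% interval 0.11 to 1.14), which did not pass the call at an adjusted p of 0.0360. Of all tested genes, 93.5% had a lower fold change. Scaled to T > C reads, the gene was called higher at 1.45 (adjusted p 2.66e-05).

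**Figure D1:**
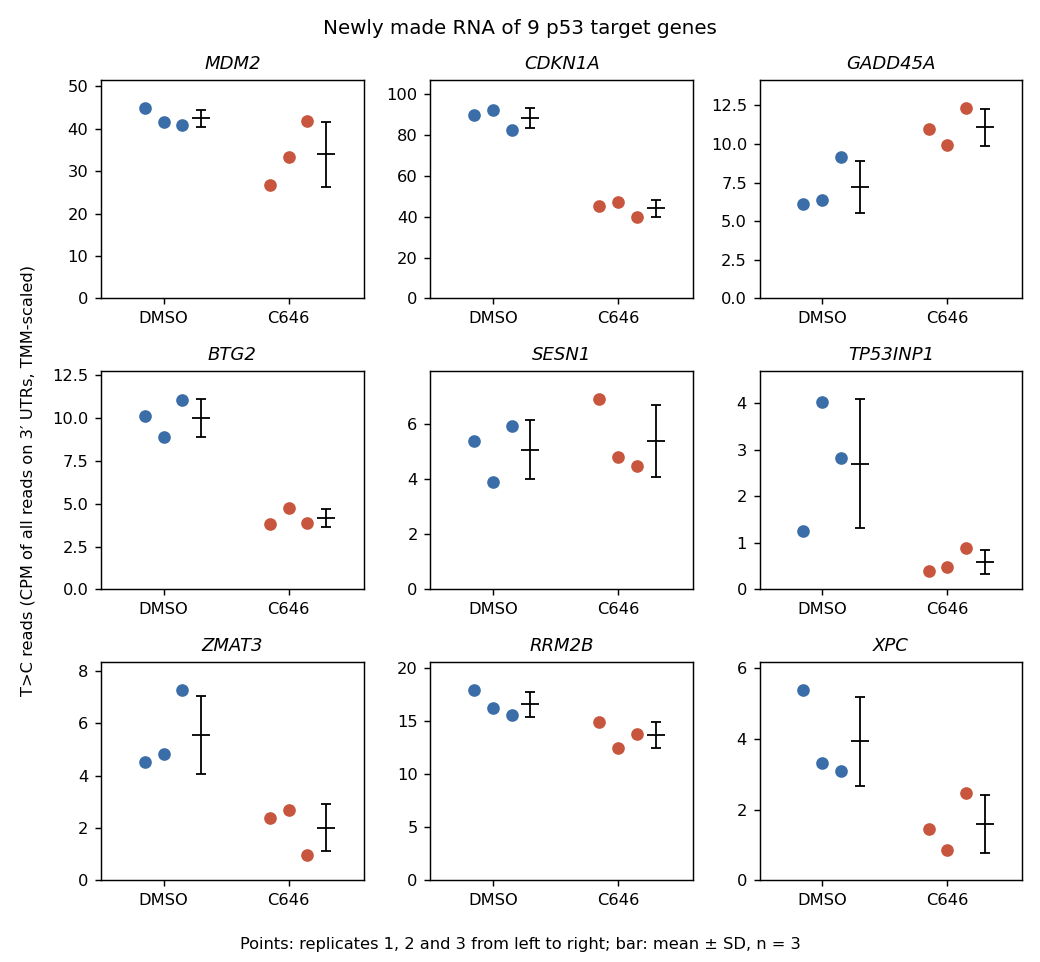
T > C reads (TMM-scaled CPM of all reads on 3′ UTRs, vertical axis from 0) of the 9 p53 target genes in the 3 DMSO (blue) and 3 C646 (red) libraries, with mean ± SD beside the points. CDKN1A, BTG2, ZMAT3, TP53INP1, RRM2B and XPC have all C646 points below all DMSO points, GADD45A has them above, and MDM2 and SESN1 overlap.

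SESN1 encodes a sestrin, which restrains mTORC1 under stress. Its reads lie in exon 10, the last exon (chr6:108986437-108987543). SESN1 had T > C reads at 5.38, 3.88 and 5.92 CPM in DMSO and at 6.88, 4.78 and 4.46 CPM in C646. The groups overlapped, and the log2 fold change of 0.08 (SE 0.32, 95% interval -0.57 to 0.73, adjusted p 0.856) had no steady sign, being -0.13 without C646 replicate 1 and -0.080 without DMSO replicate 2.

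TP53INP1 encodes a p53-induced protein of stress-associated death and autophagy, and its reads lie in the last exon, exon 4 (chr8:94925972-94930728). Only 12, 29 and 21 of its reads carried a conversion in DMSO and 3, 4 and 9 in C646, or 1.26, 4.02 and 2.83 against 0.397, 0.490 and 0.893 CPM. The groups did not overlap, but DMSO replicate 1 was closer to C646 replicate 3 than to the other DMSO libraries. The gene did not pass the filter on low counts. Without that filter its log2 fold change was -2.11 (SE 0.62, adjusted p 0.00297), past both limits of the call, on a mean of 13 T > C reads per library.

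ZMAT3 encodes a zinc finger protein that binds RNA and acts in splicing and mRNA stability. Its reads lie in exon 6, the last exon (chr3:179017225-179025016). In new mRNA, ZMAT3 was at 4.53, 4.85 and 7.27 CPM in DMSO and at 2.38, 2.70 and 0.992 CPM in C646. No C646 library reached the lowest DMSO library, and C646 replicate 3 and DMSO replicate 3 were the extremes. On its C646 libraries alone ZMAT3 would not have passed the filter on low counts. Its log2 fold change was -1.47 (SE 0.40, adjusted p 0.0030). Without C646 replicate 3 it was -1.12 (adjusted p 0.0152) and without DMSO replicate 3 it was -1.23 (adjusted p 0.0390), and the call was lost in both cases, as it was when scaled to all filtered reads (-1.27, adjusted p 0.0114).

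RRM2B and XPC serve DNA repair. RRM2B is the p53-inducible subunit of ribonucleotide reductase, which supplies deoxynucleotides for repair, with reads in the last exon, exon 9 (chr8:102204501-102208132). T > C reads of RRM2B were at 17.9, 16.2 and 15.6 CPM in DMSO and at 14.9, 12.5 and 13.8 CPM in C646. The groups did not overlap but almost touched, and the log2 fold change of -0.27 (SE 0.21, adjusted p 0.257) did not pass the test and was 0.56 when scaled to T > C reads.

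XPC recognises DNA lesions in global genome nucleotide excision repair. T > C reads of XPC were at 5.38, 3.33 and 3.10 CPM in DMSO and at 1.46, 0.858 and 2.48 CPM in C646. The groups did not overlap, with DMSO replicate 1 well above the rest and C646 replicate 3 nearest to the DMSO range. XPC had a log2 fold change of -1.28 (SE 0.46) with an adjusted p of 0.0192, above the limit, and without C646 replicate 3 it was -1.77 with an adjusted p of 0.00414, which would be called. Leaving out C646 replicate 2 or DMSO replicate 1 gave -0.98 in each case, with adjusted p of 0.0823 and 0.155.

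Counting libraries alone, 5 of the 8 tested members had all C646 values below all DMSO values and 1 had them above, against 55.8% and 6.46% of all tested genes. Set against the median of all genes, the log2 fold changes of GADD45A, SESN1, RRM2B and MDM2 were higher by 1.45, 0.90, 0.56 and 0.51. Those of CDKN1A, BTG2, XPC and ZMAT3 differed from the median by -0.17, -0.44, -0.45 and -0.64. When scaled to the T > C reads, 0 members were called lower and 1, GADD45A, was called higher, where 7.72% of all genes were called lower and 9.05% higher, and CDKN1A, BTG2 and ZMAT3 stood at -0.16, -0.43 and -0.63.

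The second question was whether total mRNA of the same genes differed. BTG2 was the only member called in all reads, and it was lower. Among 10851 tested genes 1.88% were called lower and 5.89% higher, and of the 9 members 1 was called lower and 0 higher by edgeR and by DESeq2, with 4 lower and 2 higher at an unadjusted p under 0.05. The median log2 fold change was -0.28 over the members and -0.0030 over all genes.

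All reads of BTG2 were at 14.6, 12.3 and 15.6 CPM in DMSO and at 7.27, 6.74 and 6.45 CPM in C646. The C646 libraries lay within a narrow range, below all DMSO libraries. BTG2 was thus at a log2 fold change of -1.06 (SE 0.22, adjusted p 0.00304), lower than that of all but 2.41% of genes. The call was lost without DMSO replicate 1 (-1.03, adjusted p 0.0158), DMSO replicate 3 (-0.98, adjusted p 0.0151) or C646 replicate 2 (-1.05, adjusted p 0.0149), and when scaled to all filtered reads (-0.86, adjusted p 0.0102).

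All reads of CDKN1A were at 206, 217 and 196 CPM in DMSO and at 168, 156 and 117 CPM in C646. Every C646 library was below every DMSO library, with C646 replicate 3 the lowest. The log2 fold change of -0.49 (SE 0.15, adjusted p 0.0215) did not pass. All reads of ZMAT3 were at 46.1, 51.4 and 48.9 CPM in DMSO and at 38, 33.8 and 27.7 CPM in C646, without overlap and with a log2 fold change of -0.56 (SE 0.16, adjusted p 0.0166). TP53INP1, at 10.4, 18.4 and 11.7 CPM in DMSO and 9.13, 5.27 and 7.44 CPM in C646, also did not overlap but had a wide DMSO range, and its log2 fold change was -0.89 (SE 0.28, adjusted p 0.0261).

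RRM2B and GADD45A went the other way in total mRNA. All reads of RRM2B were at 65.1, 56.7 and 74.5 CPM in DMSO and at 89.9, 87.5 and 104 CPM in C646. All 3 C646 libraries were above all DMSO libraries, at a log2 fold change of 0.52 (SE 0.15, adjusted p 0.0151). All reads of GADD45A were at 10.8, 11 and 15.1 CPM in DMSO and at 18.4, 21.2 and 20.5 CPM in C646, again without overlap, at a log2 fold change of 0.71 (SE 0.20, adjusted p 0.0165). Neither passed the limits of the call.

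MDM2, SESN1 and XPC overlapped between groups in all reads. MDM2 ranged from 126 to 142 CPM in DMSO and from 116 to 138 CPM in C646 (log2 fold change -0.11, SE 0.13, 95% interval -0.39 to 0.17). SESN1 ranged from 16.5 to 26.8 CPM and from 23.8 to 28.6 CPM (0.25, SE 0.20, 95% interval -0.17 to 0.67). XPC ranged from 40.2 to 46.4 CPM and from 31.4 to 40.6 CPM (-0.28, SE 0.16, 95% interval -0.62 to 0.07). In all, 4 members had every C646 library below and 2 had every C646 library above the DMSO libraries, against 23.1% and 24.5% of all tested genes.

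**Figure D2:**
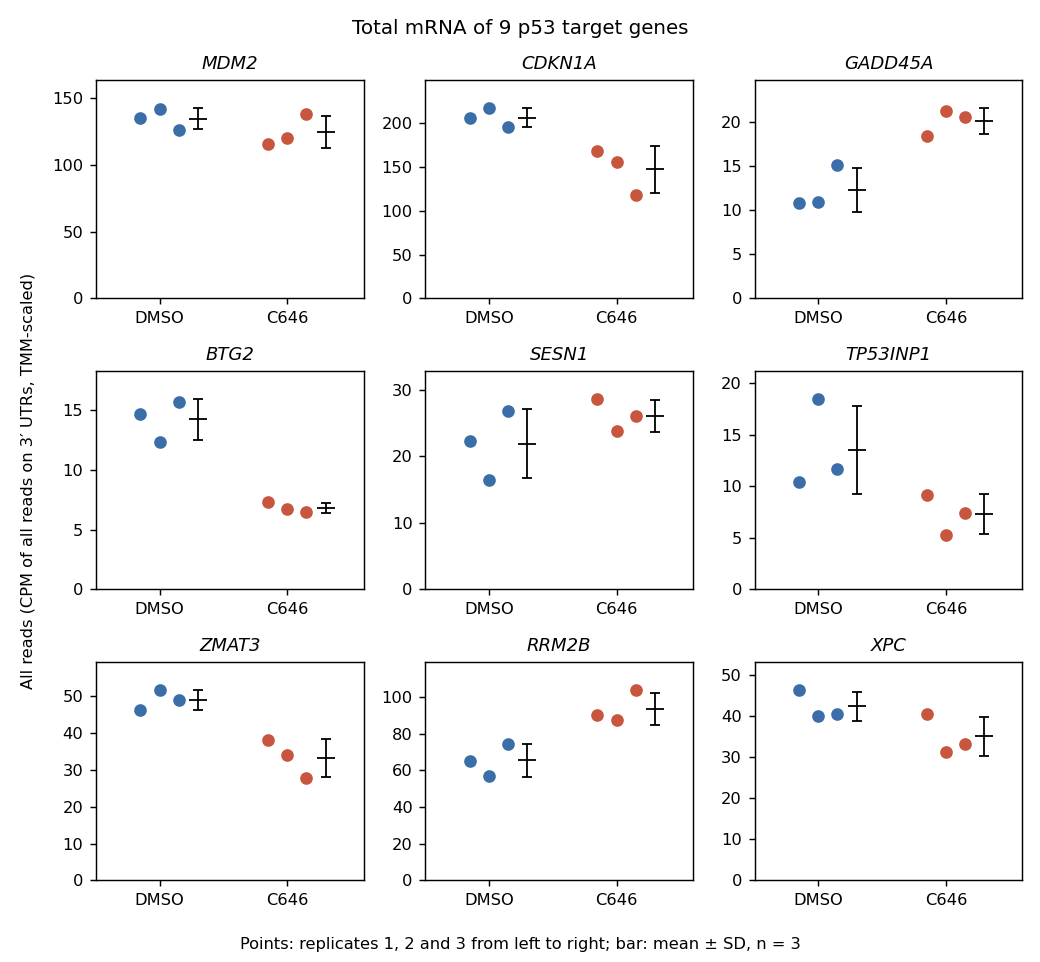
All reads (TMM-scaled CPM, vertical axis from 0) of the 9 p53 target genes in the 3 DMSO (blue) and 3 C646 (red) libraries, with mean ± SD beside the points. CDKN1A, BTG2, TP53INP1 and ZMAT3 are lower in every C646 library, GADD45A and RRM2B are higher in every C646 library, and MDM2, SESN1 and XPC overlap.

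The difference in all reads of a gene is the sum of the differences in T > C reads and in reads without a conversion. For CDKN1A, 44.1 of the 59.0 CPM by which the mean was lower in C646 were T > C reads and 14.9 CPM were reads without a conversion. For BTG2, 5.85 of 7.38 CPM were T > C reads. For ZMAT3, in contrast, T > C reads made up 3.53 of 15.6 CPM and the other reads 12.1 CPM.

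In RRM2B the parts had opposite signs, with T > C reads lower by 2.84 CPM and the other reads higher by 31.1 CPM. Reads of RRM2B without a conversion were at 47.2, 40.5 and 58.8 CPM in DMSO and at 75, 75 and 89.9 CPM in C646. The groups did not overlap, and the log2 fold change was 0.71 (SE 0.16, adjusted p 0.00501), below the fold limit. In GADD45A both parts were higher, by 3.85 CPM in T > C reads and 3.93 CPM in the others.

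The test on reads without a conversion was added after seeing the data. Among 10568 genes it called 0.880% lower and 8.01% higher, and it called 0 of the 9 members. At an unadjusted p under 0.05, GADD45A and RRM2B were higher and ZMAT3 and TP53INP1 lower (p of 0.0092, 0.000569, 0.0110 and 0.0294). The groups did not overlap in 3 members with lower and 2 with higher values, against 17.3% and 30.1% of all genes.

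**Figure D3:**
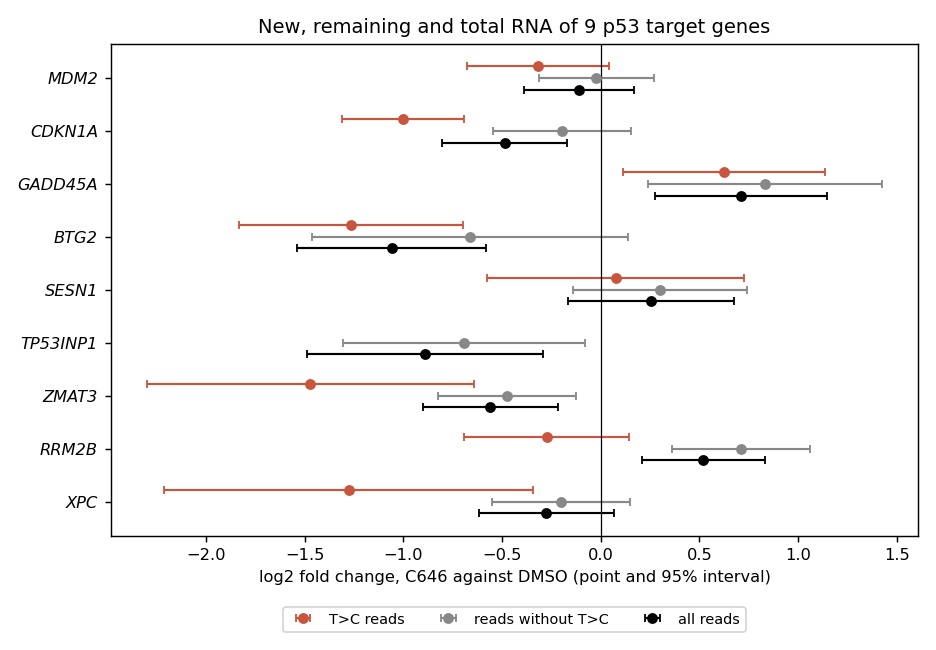
Log2 fold change, C646 against DMSO, of T > C reads (red), reads without T > C (grey) and all reads (black) for each p53 target gene, with 95% intervals from edgeR's quasi-likelihood fit. In each of the 8 genes with a T > C point it is the lowest of the 3, RRM2B has T > C reads below 0 and the others above 0, and TP53INP1 has no T > C point because it did not pass the filter.

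The third comparison was within each gene, between T > C reads and the other reads of the same library, and needs no scaling between libraries. All 8 tested members had lower T > C odds in C646, with a median log2 change of -0.69, and 92.0% of all 7722 tested genes had lower odds, with a median of -1.004. Of the members, 0 were called lower and 0 higher in edgeR's fit, with 4 lower at an unadjusted p under 0.05, where 38.3% of all genes were called lower and 0.790% higher. RRM2B was at -0.999 (SE 0.25, adjusted p 0.00165), just short of the fold limit, and was called without C646 replicate 1 (-1.10) or DMSO replicate 3 (-1.18). CDKN1A was at -0.78 (SE 0.18, adjusted p 0.000836). ZMAT3 and XPC were at -1.01 (SE 0.38, adjusted p 0.0239) and -1.06 (SE 0.41, adjusted p 0.0277), and XPC was called without C646 replicate 3 (-1.62, adjusted p 0.00369).

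The smaller values were those of MDM2 (-0.32, SE 0.20, adjusted p 0.178), BTG2 (-0.60, SE 0.49, adjusted p 0.293), SESN1 (-0.25, SE 0.37, adjusted p 0.562) and GADD45A (-0.18, SE 0.41, adjusted p 0.706). In BTG2, the gene called lower in both T > C and all reads, T > C reads were 69.1%, 71.9% and 70.7% of the reads in DMSO and 52.7%, 70.9% and 60.0% in C646. The C646 libraries spread widely and overlapped the DMSO range. In RRM2B they were 27.5%, 28.6% and 21.0% in DMSO and 16.6%, 14.3% and 13.3% in C646, without overlap. The share was lower in every C646 library than in any DMSO library in 4 of the 8 tested members (CDKN1A, ZMAT3, RRM2B and XPC) and higher in every one in 0, against 64.5% and 2.18% of the tested genes. TP53INP1, which did not pass the filter, also had a lower share in every C646 library.

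In the DMSO control cells the members differed widely in how much of their mRNA was new. The share of T > C reads in DMSO after 1 h of label was 70.6% ± 1.43 (SD, n = 3) for BTG2, higher than in 98.7% of the 7722 genes. It was 58.6% ± 1.95 for GADD45A, 42.8% ± 0.724 for CDKN1A and 31.6% ± 2.07 for MDM2, at percentiles 96.9, 91.8 and 84.7. These 4 members were the most labelled, in an order whose neighbours lay further apart than their SDs. As conversions per T position covered, GADD45A (5.36% ± 1.04) and BTG2 (5.28% ± 0.233) could not be ordered.

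RRM2B (25.7% ± 4.12), SESN1 (23.2% ± 1.01) and TP53INP1 (19.4% ± 6.37) followed and could not be ordered within their spread. ZMAT3 (11.4% ± 3.03) and XPC (9.16% ± 2.13) were below the median of all genes, 13.3%, and also overlapped each other. With only the entry in the last exon of XPC, exon 16, its share was 14.2%, above the median, at percentile 53.1 in place of 31.0. The share depends on the number of T bases a read covers as well as on the age of the mRNA, so it is a description and not a half-life.

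**Figure D4:**
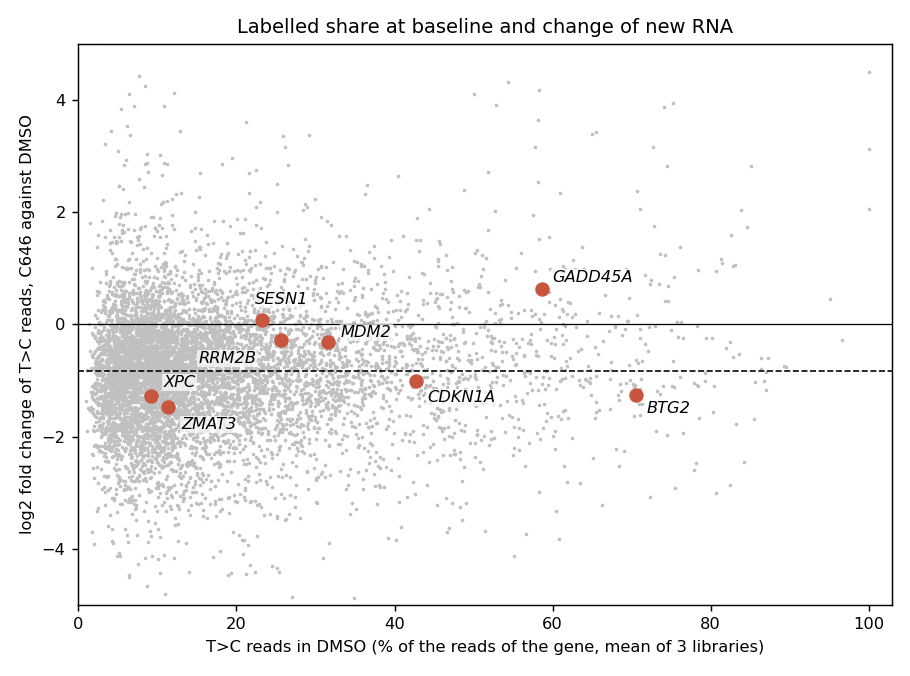
Share of T > C reads in DMSO (%, mean of 3 libraries, horizontal axis) against the change of new mRNA in C646 (log2 fold change of T > C reads, vertical axis) for all tested genes (grey) and the 8 tested p53 target genes (red), with the median of all genes as a dashed line at -0.83. BTG2, at 70.6%, and ZMAT3, at 11.4%, both lie below the dashed line, GADD45A is above 0, and 27 genes beyond ± 5 and 5 genes without DMSO reads are not drawn.

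The 3′ UTRs of the members were searched for AU-rich motifs, which are known in many short-lived mRNAs. The pentamer ATTTA was present in all 9 members and in 69.9% of the most-read 3′ UTR entries of 10851 genes, and the longer TATTTAT, which contains it, in 5 of 9 members (MDM2, GADD45A, BTG2, TP53INP1 and RRM2B) and in 31.2% of genes. Presence depends on length, and the 3′ UTRs of ZMAT3, MDM2, TP53INP1 and RRM2B were longer than those of 88.7% to 99.0% of genes. Per kb, the median number of ATTTA was 1.95 over the members and 1.58 over all genes. Windows of 29 bases around TATTTAT, given in capitals, are shown in the sense of the mRNA for 3 of the 4 most labelled members. CDKN1A, the other one, had 3 ATTTA and 0 TATTTAT in 1539 bases.

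BTG2, chr1:203307528-203307556: aaatgaagagcTATTTATatatattattt
GADD45A, chr1:67688260-67688288: acatgaaaagtTATTTATgctataaattt
MDM2, first of 2, chr12:68842214-68842242: atgccaagctaTATTTATaatgaacaaat
MDM2, second of 2, chr12:68844762-68844790: tattttattttTATTTATtttttgagacg

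MDM2 and RRM2B had the most ATTTA, 23 in 5695 bases and 22 in 3632 bases. BTG2, with the highest labelled share, had 2 in 2163 bases.

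XPC differed from the other members in how its reads were placed. Its 15 annotated entries cover most of its exons, and 7 of them had reads. The entry in exon 16, the last exon (chr3:14145148-14146159), held 1123 reads or 58.2% of the total, and 2 entries in exons 2 and 3 held 791 reads or 41.0%. In exon 16 the T > C share was 17.2%, 15.1% and 10.2% in DMSO and 3.83%, 3.23% and 8.05% in C646, without overlap. In exons 2 and 3 it was 4.84%, 2.00% and 3.03% in DMSO and 3.28%, 1.98% and 6% in C646, which overlapped. With the exon 16 entry alone, the T > C log2 fold change was -1.45 (adjusted p 0.0176) and the odds were called lower at -1.60 (adjusted p 0.00602), while all reads were at -0.015. The other 8 members had 1 entry with reads each, and multimapped reads were at most 0.672% of any member's reads.

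Other p53 targets were described from 3 lists with 43 genes (death, arrest and feedback, repair and metabolism), none of them among the 9 members. In T > C reads, 34 were tested, 8 or 23.5% were called lower and 5 or 14.7% higher, beside 33.0% and 2.97% of all tested genes, with a median log2 fold change of -0.42 (-0.83 over all genes). All 5 higher calls were in the list of arrest and feedback, where 13 of 14 genes were tested and 3 were called lower. The 5 include GDF15 and CCNG2, which would not have passed the filter on low counts on their DMSO libraries alone. Both are also in the median. The list of repair and metabolism had 4 lower calls among 13 tested genes, a share near that of all genes, and a median of -0.92. The list of death genes had 1 lower call among 8 tested genes and a median of -0.37. Without DMSO replicate 1, the lower calls over the 3 lists were 5, where those over all genes were 1990 in place of 2548. Scaled to all filtered reads they were 5 lower and 6 higher, beside 24.3% and 3.96% of all genes, with BBC3, RCHY1 and PRKAB1 at -0.96, -1.22 and -0.97 and no longer called. Scaled to T > C reads they were 3 lower and 8 higher, beside 7.72% and 9.05% of all genes under that scaling, and the median was 0.41.

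Among the higher calls of the arrest and feedback list with T > C reads in every DMSO library, IER5, an immediate early gene that acts with HSF1, had the largest fold change. T > C reads of IER5 were at 28.6, 41.0 and 31.1 CPM in DMSO and at 349, 409 and 500 CPM in C646 (log2 fold change 3.65, SE 0.16, adjusted p 2.29e-17). CCNG2, an unconventional cyclin linked to arrest, was at 0.422, 1.66 and 2.42 CPM in DMSO and at 8.20, 9.07 and 10.0 CPM in C646 (2.64, SE 0.40, adjusted p 2.56e-06). On its DMSO libraries alone CCNG2 would not have passed the filter on low counts. BTG1, the close relative of BTG2, was at 41.3, 58.6 and 56.4 CPM in DMSO and at 137, 123 and 149 CPM in C646 (1.39, SE 0.16, adjusted p 2.02e-08).

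Separate groups were a condition for naming these 3 genes. BTG1 and BTG2 were called in opposite directions. The kinase gene PLK2 was higher as well (1.26, SE 0.31, adjusted p 0.00117), a call lost without DMSO replicate 2 (1.09, adjusted p 0.0118), and its relative PLK3 was lower (-2.92, SE 0.50, adjusted p 1.95e-05). The last higher call was GDF15, a secreted stress cytokine, named after its values were seen. It had 0 T > C reads in all DMSO libraries and 17, 18 and 33 in C646.

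FBXW7, a substrate receptor of an SCF ubiquitin ligase, had the most reads among the lower calls of this list, at 20.4, 25.2 and 17.1 CPM in DMSO and 3.57, 3.31 and 6.45 CPM in C646 (-2.21, SE 0.26, adjusted p 4.76e-08). The ubiquitin ligase gene RCHY1, which like MDM2 targets p53, was lower in new mRNA (-1.42, SE 0.41, adjusted p 0.00437), a call that held only without C646 replicate 1 among the fits with 1 library left out. The death gene BBC3, which encodes the BH3-only protein PUMA, was at 32.3, 42.1 and 35.5 CPM in DMSO and at 14, 13.6 and 20.8 CPM in C646 (-1.17, SE 0.20, adjusted p 1.29e-05). No C646 library of BBC3 or FBXW7 reached the DMSO range, which was a condition for naming a gene.

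In the list of repair and metabolism, SCO2, an assembly factor of cytochrome c oxidase, was lower at -2.47 (SE 0.46, adjusted p 4.94e-05), and TIGAR, a regulator of glycolysis, at -2.10 (SE 0.46, adjusted p 0.000375). On their C646 libraries alone SCO2, TIGAR, PLK3 and RCHY1 would not have passed the filter on low counts. POLH, a translesion polymerase, was at -1.36 (SE 0.33, adjusted p 0.00111) and -1.22 without DMSO replicate 1 (adjusted p 0.0153), where the call was lost. PRKAB1, a subunit of AMP-activated kinase, was at -1.18 (SE 0.36, adjusted p 0.00714), a call that held only without C646 replicate 3 among those fits, with values from -1.38 to -1.05. These genes all stayed below 0 when scaled to T > C reads, where of the lower calls named from the 3 target lists only PLK3, FBXW7 and SCO2 were still called.

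In all reads, 1 of 41 tested genes of the 3 lists was called lower and 11 higher, or 26.8%, beside 5.89% of all genes. Without DMSO replicate 1, 7 were higher, where the higher calls over all genes were 499 in place of 639. The 11 include GDF15 and TP53I3, with means of 0.673 and 1.28 CPM in DMSO. On their DMSO libraries alone these genes would not have passed the filter on low counts. The median over the 3 lists was 0.11. In the list of death genes, 0 of 12 tested genes were called lower and 3 higher. The 11 higher calls of the 3 lists differ from the 9 members, of which 0 were called higher in all reads. The difference between the lists was not tested.

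A list of 25 regulators of p53 (kinases, ubiquitin ligases, acetyltransferases and binding partners) had 2 lower and 0 higher calls among 21 tested genes in T > C reads, beside 33.0% and 2.97% of all genes, with a median of -0.59 (-0.83 over all genes). In all reads, edgeR and DESeq2 called 0 of 22 genes, and 4 were lower and 5 higher at an unadjusted p under 0.05. The lower calls were RPL11, a ribosomal protein that binds MDM2 (-1.25, SE 0.23, adjusted p 5.82e-05), and PML, the scaffold of nuclear bodies (-1.86, SE 0.48, adjusted p 0.00176). The call of PML was lost without DMSO replicate 1 (-1.73), DMSO replicate 3 (-1.80) or C646 replicate 2 (-1.54). PML would not have passed the filter on low counts on its C646 libraries alone. Scaled to T > C reads, RPL11 was at -0.41 and PML at -1.05, neither of them called. EP300, which encodes p300, was at -0.79 in T > C reads (SE 0.20, adjusted p 0.00122) and at -0.08 in all reads, and CREBBP, which encodes CBP, at -0.12 and 0.55.

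**Figure D5:**
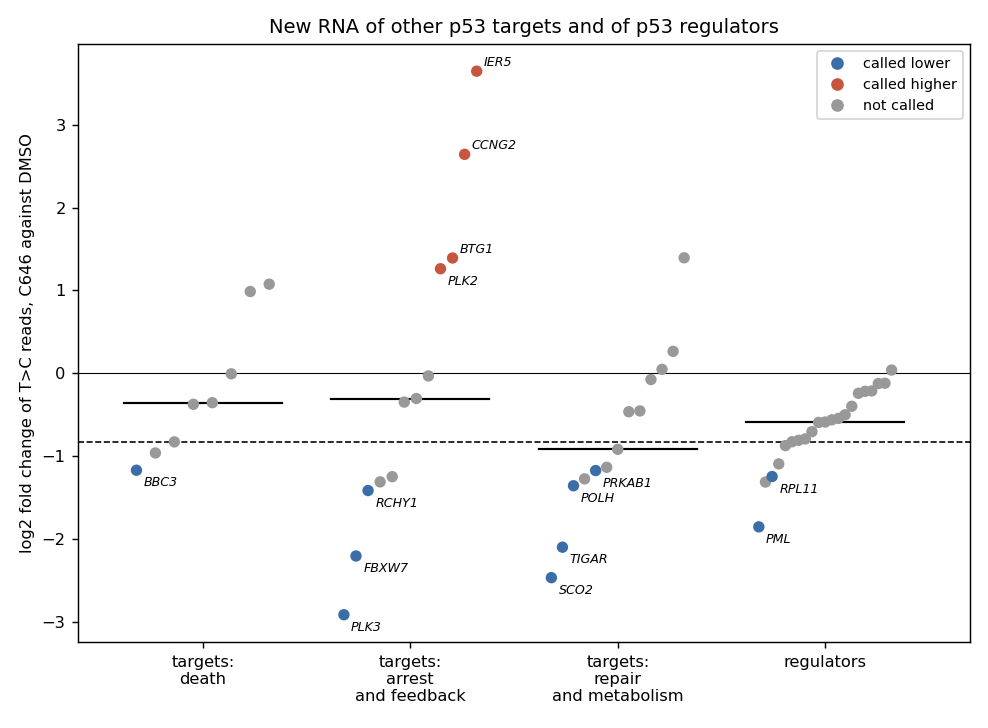
Log2 fold change of T > C reads, C646 against DMSO, of the tested genes in the 3 lists of other p53 targets and in the list of p53 regulators, with the median of each list as a bar and the median of all genes, -0.83, as a dashed line. Blue genes were called lower and red genes higher, and GDF15, with 0 T > C reads in DMSO, counts in the median, as the highest gene of its list, but is not drawn.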

How the data were processed

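The authors treated the RNA with the SLAM-seq Anabolic Kinetics Kit, prepared QuantSeq 3′ mRNA libraries and used SLAM-Dunk for the alignment to GRCh38. For each of the 6 libraries they deposited raw, unscaled counts of reads, T > C reads and conversions at 58136 3′ UTR entries. The tables also hold a deposited signal, the read coverage of T positions, and CPM scaled by the authors' software to all filtered reads, from which those filtered reads were computed. A deposited conversion rate, a fraction, was not used. The study tested reads with at least 2 conversions, whereas the deposited T > C counts hold reads with at least 1.

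Counts were summed per gene. Symbols matched 25310 of 25420 Entrez identifiers. Tests used edgeR 4.0.16 (glmQLFit, glmQLFTest, filterByExpr) in R 4.3.3 with Benjamini-Hochberg adjustment, and SE is the absolute log2 fold change over the square root of F. T > C reads and reads without T > C were scaled by the TMM-scaled totals of all reads. T > C odds were tested as the interaction of read kind and treatment, with each library as a factor. The tested genes had a median of 35.5 T > C reads in a library, which limits the precision of single genes. In data simulated for the T > C test of 7722 genes, 91% of genes changed by 1.5 and 96% of those changed by 2 (log2) were called. In the odds test of the same number of genes these were 76% and 95%, with 1 false call. In both, 200 genes with a mean of at least 20 T > C reads were changed. All genes were given the same spread, and no shift across the transcriptome was simulated. The shares called therefore do not apply to genes with fewer reads or to data with such a shift.

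The 9 members and the lists of other genes were chosen with earlier results of these data known. Of each list, up to 4 lower and 4 higher calls with a mean of 20 or more T > C reads and with separate groups were named, plus EP300 and CREBBP. Within groups, chi-square over its degrees of freedom was 7.51 to 25.9 between libraries, so that none was a copy, and all were used. The alternatives were TMM on T > C reads, DESeq2 1.42.0, DESeq2's size factors, filtered reads, other filters, the most-read entry, a replicate block and each library left out. Sites were read from GRCh38 with GENCODE annotation by Python 3.11.15.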

Additional observations from a re-analysis of the deposited data

How the results depend on the processing

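The scaling of the T > C reads moved the most. With TMM on T > C reads, 604 genes were called lower and 708 higher (2548 and 229 as reported), with 0 members lower and 1 higher, MDM2 turned to 0.51 and RRM2B to 0.56. With DESeq2 and size factors of the T > C reads, 565 genes were lower and 660 higher, with 0 members lower and 1 higher, and MDM2 was at 0.49 and RRM2B at 0.54. Reads on 3′ UTRs were 49.7% to 51.6% of the filtered reads in DMSO and 56.3% to 62.0% in C646, and scaled to all filtered reads, 1 member was lower. In all reads that scaling gave 90 lower, 1014 higher and 0 members lower, with MDM2 at 0.099, and in reads without T > C it gave 28 lower and 1305 higher genes, 1 member higher, MDM2 at 0.19 and CDKN1A at 0.0018. The minimum of 50 T > C reads, with fewer genes tested, left 1038 lower and 125 higher genes in T > C reads and 1189 with lower odds, and with the most-read entry 1 member (XPC) was called lower in the odds and CDKN1A lost its call in T > C reads.

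Leaving out 1 library gave 1990 to 2603 lower and 206 to 263 higher genes and 2 to 3 members lower in T > C reads. The members called were not always the same. Without C646 replicate 3 they were BTG2, XPC and TP53INP1, and without DMSO replicate 1 they were BTG2, ZMAT3 and TP53INP1. TP53INP1 passed the filter on low counts in these fits. In all reads it gave 120 to 321 lower genes and 0 to 1 members, in reads without T > C 37 to 192 lower genes, and in the odds 0 to 1 members. The sign turned for SESN1 in T > C reads (-0.13 to 0.20), GADD45A in the odds (-0.32 to 0.071) and MDM2 in reads without T > C (-0.070 to 0.041). The causes were not tested. The replicate block changed no member's call (2586 lower and 226 higher in T > C reads, 232 and 700 in all reads, 2762 and 57 in the odds), and same-numbered libraries correlated at 0.030 to 0.065 in T > C reads and at -0.0014, 0.14 and 0.23 in all reads, so that not every pair was above 0.1 and the numbers were not taken as pairs. Depth limits TP53INP1 and XPC, with 13 and 23.5 T > C reads per library on average.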
